A study of Sus scrofa with 36 samples.

Results

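Gene expression in the mammary gland of pigs given haloperidol with progesterone (group HP) was compared with that of intact sham-operated pigs. The arrays were chosen by their treatment labels, 4 labelled haloperidol+progesterone and 4 labelled sham-operated and saline, and make up 8 of the 36 arrays of the series, with 1 array for each animal. All pigs were female, peripubertal Yucatan miniature swine 5 months old, and all were injected with BrdU, a thymidine analogue, 24 hours before euthanasia. The HP pigs were ovariectomized, received bromocriptine for 8 days and then haloperidol with progesterone for 5 days. The sham pigs underwent an operation that kept the ovaries and received saline for 13 days. HP and sham therefore differed in the ovaries, in the earlier bromocriptine, in haloperidol and in progesterone, and the parts of these 4 differences cannot be told apart in the main comparison. The labels name no dose, hormone level or cycle stage. The other groups used below were also ovariectomized and given bromocriptine for 8 days. For the next 5 days group H received haloperidol alone, group BP received bromocriptine with progesterone, and group HEP received haloperidol with estrogen and progesterone (4 pigs each). In the same 5 days group B received bromocriptine alone and group HE haloperidol with estrogen. Group BE received bromocriptine with estrogen, and group BEP bromocriptine with estrogen and progesterone (4 pigs each).

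Dopamine from the hypothalamus holds back the release of prolactin by the pituitary. Bromocriptine acts as dopamine does at its receptor and lowers prolactin, whereas haloperidol blocks the receptor and raises it. In the mammary epithelium prolactin acts through its receptor, the kinase JAK2 and the transcription factors STAT5A and STAT5B, and its textbook targets are the genes of milk proteins. Ovarian estrogen acts on the gland through the estrogen receptor and is known to raise the progesterone receptor gene PGR and the growth factor gene AREG. Progesterone acts through the product of PGR, and together these hormones drive the growth of ducts and alveoli.

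Levels are the deposited RMA values (a normalized summary of the probes for one transcript), read as log2, so that a difference of 1 is a 2-fold difference. The values of 20792 probe sets ranged from 1.552 to 13.74, and the lower quartile of an array lay between 5.90 and 6.09. A group mean below that quartile is called dim here, because detection was not measured and the size of a fold against such a mean is uncertain. Correlations between arrays were 0.947 to 0.977 within HP, 0.934 to 0.979 within sham and 0.923 to 0.965 between them. On the first principal component of all 36 arrays (26.02% of the variance) HP A and HP D scored -16.0 and -18.7, HP B and HP C -66.4 and -65.3, and the sham arrays -10.8 to 20.2. The letters name the animals of a group, and the labels do not say that they pair animals across groups. KRT8 and KRT18, keratins of luminal epithelium, had mean levels of 12.4 and 10.6 in HP and 12.9 and 11.6 in sham, and the casein genes CSN2 and CSN3 were bright in both groups. The samples are pieces of whole gland, in which fewer cells of a type and less RNA per cell cannot be told apart.

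HP differed from sham at 571 of 20792 probe sets (2.75%) by limma with an adjusted p under 0.05, with 197 higher (0.947%) and 374 lower (1.8%) in HP. Among 6360 genes, each taken by its brightest probe set, 184 passed (2.89%), 52 higher (0.818%) and 132 lower (2.08%). The 52 higher genes had a median change of 1.24, and in 49 of them every HP animal lay above every sham animal. The 132 lower genes had a median change of -1.43, and in 121 of them every HP animal lay below every sham animal. Over all genes the groups were separate in that way for 199 (3.13%) with HP higher and 448 (7.04%) with HP lower. With LOC symbols left out, the largest falls were those of AREG, HAPLN1, ZFP42 and NEK2, and the largest rises those of PCK1, C7H6orf52, PDK4 and GPX3. The count depended on single animals: 571 probe sets became 235 without HP C, 249 without sham B, 259 without HP B, 305 without sham D and 326 without sham A, but 794 without sham C (390 higher and 404 lower). It also rose to 1840 with array weights (892 higher and 948 lower) and, in a fit chosen after seeing the data, to 945 without BP A. HP A and HP C had the highest skeletal muscle scores of their group, and with both set aside, a choice made after seeing the data, 46 probe sets passed (20 higher and 26 lower).

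**Figure D1:**
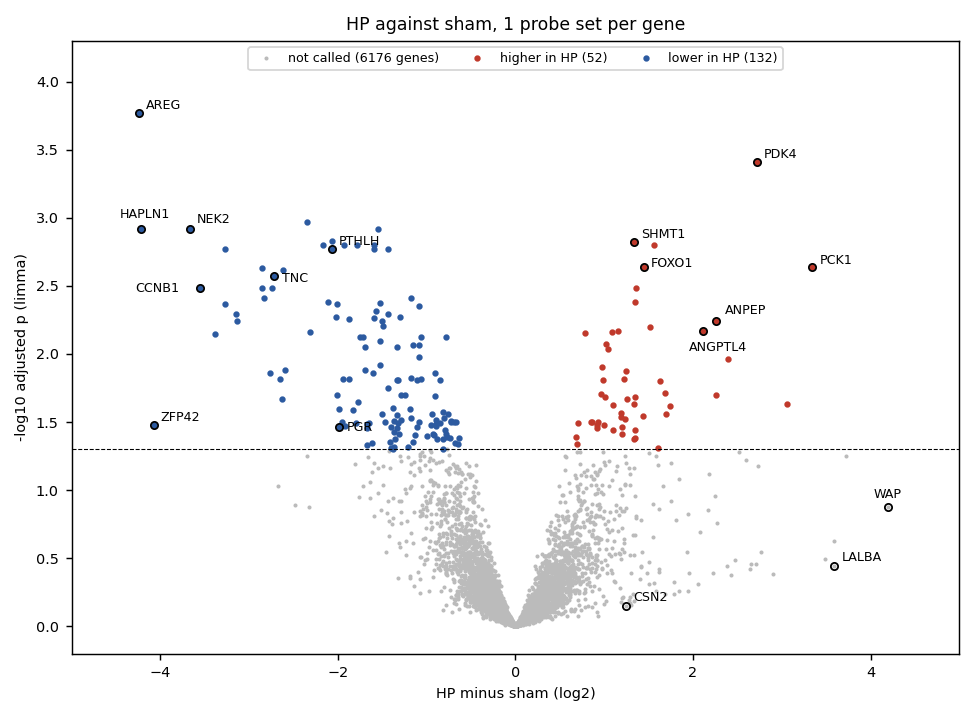
Difference between HP and sham (log2, x axis) against the -log10 of the adjusted p from limma (y axis) for 1 probe set of each of 6360 genes, with the dashed line at an adjusted p of 0.05. The 132 genes lower in HP (blue) have a median of -1.43 and the 52 higher genes (red) a median of 1.24. AREG and PDK4 stand at the top on either side, and WAP, LALBA and CSN2 lie below the line.

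Among the genes linked to estrogen, AREG fell most. AREG encodes amphiregulin, a ligand of the EGF receptor that ductal cells release. Its level was 11.15, 11.24, 10.24 and 11.02 in sham A, B, C and D and 7.08, 5.15, 5.84 and 8.59 in HP A, B, C and D. The highest HP animal, HP D, lay below the lowest sham animal. The change was -4.24 ± 0.54 (SE), an 18.9-fold fall (adjusted p = 0.00017, n = 4 a group), and it passed with each of the 8 arrays left out in turn and with HP A and HP C set aside. PGR was at 7.84, 8.19, 7.66 and 6.71 in sham and at 5.64, 5.80, 5.31 and 5.69 in HP. All HP animals lay close together and below every sham animal, and the HP mean was dim. PGR fell by 1.99 ± 0.53 on the log2 scale, or 3.96-fold (adjusted p = 0.0344). The call was lost without any one of HP A to D or sham A to C (adjusted p up to 0.117). It was also lost with HP A and HP C set aside (limma adjusted p = 0.245). ESR1, the estrogen receptor alpha gene, was dim in all 9 groups and differed by -0.49 ± 0.33 (adjusted p = 0.505). Of 23 measured genes of the estrogen response list 2 fell, AREG and PGR, and 0 rose, where 2.08% of all genes were called lower and 0.818% higher, with a list median of -0.16 against -0.02 for all genes. OXTR, the oxytocin receptor, differed by -1.62 ± 0.50 without passing (adjusted p = 0.074) and passed without BP A in the fit (adjusted p = 0.0231). SULT1E1, which inactivates estrogen by sulfation, lay at the other end of that list with 2.08 and did not pass.

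PTHLH, the parathyroid hormone-like hormone that the gland releases in development and lactation, also fell. Its level was 11.19, 11.34, 10.53 and 10.75 in sham and 9.25, 7.77, 8.81 and 9.72 in HP. No HP animal reached the lowest sham animal, and the change was -2.07 ± 0.36 (4.2-fold, adjusted p = 0.00169), which passed without each array in turn. Of 29 growth factor genes 3 fell (2.08% of all genes did) and 0 rose: AREG, NDP (norrin, a ligand of the WNT receptor FZD4) and DKK2, a secreted WNT modulator. NDP fell by 1.32 ± 0.35 and DKK2 by 0.79 ± 0.21. NDP was dim in both groups and DKK2 was bright, at 10.26 to 10.77 in sham and 9.37 to 10.17 in HP. A second probe set of DKK2 was not called (-0.80), and the DKK2 call was lost without any one array other than HP A (adjusted p up to 0.149), and NDP without HP A, HP B, sham A, sham B or sham D (up to 0.113). IGF1, insulin-like growth factor 1, differed by -0.15 ± 0.27.

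Genes of the cell cycle were lower in HP as a group. Of 32 measured members 20 fell and 0 rose, against 2.08% of all genes called lower, and the median was -1.64 against -0.02 for all genes. All 32 had a change below 0, from -3.55 for CCNB1 to -0.04 for CDC25C, and in 24 every HP animal lay below every sham animal, as in 7.04% of all genes. CCNB1 encodes cyclin B1, which drives entry into mitosis. It was at 8.64, 9.98, 9.67 and 8.95 in sham and at 5.88, 4.62, 4.69 and 7.83 in HP. HP D stood highest of its group and still lay below all sham animals. CCNB1 fell by 3.55 ± 0.68 (11.7-fold, adjusted p = 0.00329), with a dim HP mean. CCNB2, cyclin B2, fell by 3.15 ± 0.63 (8.85-fold, adjusted p = 0.0051), also to a dim HP mean.

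TOP2A, the topoisomerase that untangles copied chromosomes, had 9.61, 10.71, 10.05 and 10.05 in sham and 6.81, 6.08, 5.92 and 9.04 in HP. Again HP D stood well above the other HP animals, and its level lay under the lowest sham animal. The change was -3.14 ± 0.64 (8.8-fold, adjusted p = 0.00573). NDC80, a kinetochore protein that holds spindle fibres, fell by 3.38 ± 0.71, and CDCA3, which triggers entry into mitosis, by 2.86 ± 0.54, both with a dim HP mean. NEK2, a kinase of centrosome separation outside the cell cycle list, was at 7.12, 8.57, 8.58 and 8.61 in sham and at 3.73, 4.23, 4.00 and 6.26 in HP. NEK2 fell 12.7-fold (-3.67 ± 0.60, adjusted p = 0.0012), from a bright sham mean to a dim HP mean, but its other probe sets were not called. The mitotic kinases AURKB (-2.74) and PLK1 (-1.21) and the transcription factors FOXM1 (-1.98) and MYBL2 (-1.60) were also called lower. The 12 members that did not pass lay between -2.67 (HMMR) and -0.04.

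Genes of DNA replication followed with smaller changes. Of 33 measured members 13 fell and 0 rose, against 2.08% and 0.818% of all genes, with a median of -0.69, and 32 of 33 had a change below 0. RRM2, the subunit of ribonucleotide reductase whose level follows S phase, was at 9.13, 10.33, 9.92 and 9.65 in sham and at 5.86, 6.57, 5.55 and 7.94 in HP. The groups did not overlap, and RRM2 fell by 3.28 ± 0.57 (9.69-fold, adjusted p = 0.00169). MCM2, part of the helicase that opens DNA at origins, was at 8.54, 8.92, 7.88 and 8.65 in sham and at 5.17, 6.53, 6.81 and 6.81 in HP. It fell 4.49-fold (-2.17 ± 0.37, adjusted p = 0.00159), and MCM3, MCM4 and MCM5 of the same helicase fell by 1.53, 1.37 and 1.15. Of 2 other probe sets of MCM2 1 was called (-2.41) and 1 was not (-0.64). ORC1, which marks origins, fell by 2.03 ± 0.41 and PCNA, the sliding clamp, by 1.06. ASF1B, a histone chaperone, fell by 2.86 ± 0.52, while another and dimmer probe set of ASF1B had 0.18 (adjusted p = 0.657). PCLAF, a partner of PCNA that is not in the list, fell by 3.27 ± 0.64. The HP means of ORC1, ASF1B and PCLAF were dim.

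Both counts rested on a few animals, although every fit run gave both lists a median below 0. The cell cycle count of 20 became 10 without HP C, 11 without sham B and 13 without HP B, and the replication count of 13 became 4 without sham B, 5 without HP C, 6 without HP B and 8 without sham D. With HP A and HP C set aside, 0 members of either list passed limma, with medians of -1.49 and -0.62. CCNB1 then had -3.08 (adjusted p = 0.102) and RRM2 -2.50 (adjusted p = 0.104), and 2 HP animals remained. The score of the cell cycle list, the mean of its members after centring each over the 36 arrays, was 0.04, 0.90, 0.76 and 0.35 in sham and -1.23, -1.63, -1.64 and -0.45 in HP. HP D thus lay nearest to the sham animals. Scores of luminal epithelium overlapped between the groups, at -0.20 to 0.27 in sham and -0.35 to 0.30 in HP. Of the 22 luminal genes 0 were called, but in 5 (KRT8, KRT18, KRT19, ST14 and FOXA1) every HP animal lay below every sham animal, and in 0 above, against 7.04% and 3.13% of all genes. Their part in the cell cycle and replication changes was not tested. In all, 33 of the 132 genes called lower belong to one of the 2 lists.

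**Figure D2:**
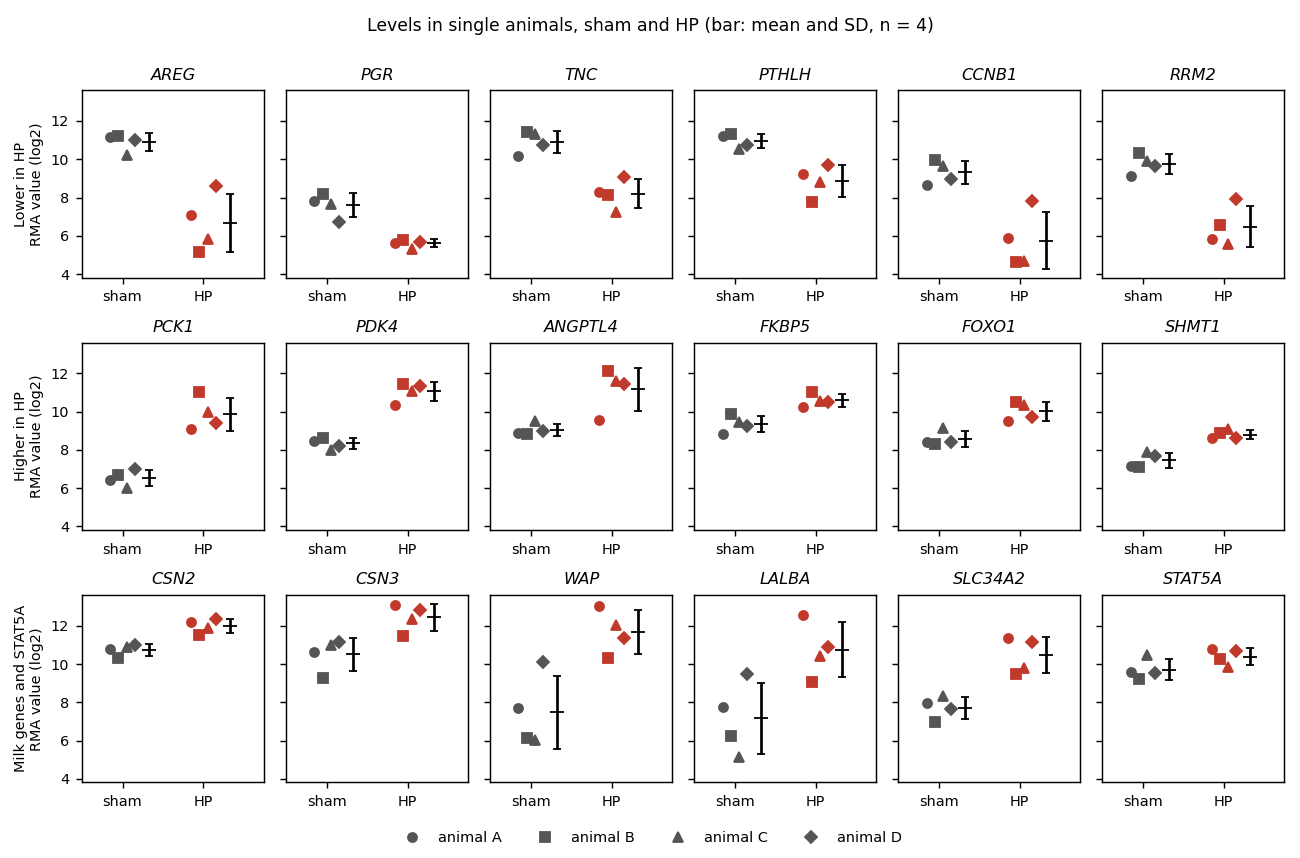
Deposited level (RMA value, log2, y axis) in each of the 4 sham pigs (grey) and 4 HP pigs (red), with the group mean and SD as a bar beside them. In the upper row all HP animals lie below all sham animals for AREG, PGR, TNC, PTHLH, CCNB1 and RRM2, in the middle row above them for PCK1, PDK4, ANGPTL4, FKBP5, FOXO1 and SHMT1, and in the lower row the groups are separate for CSN2, CSN3, WAP and SLC34A2 but overlap for LALBA and STAT5A.

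Among 39 genes of fibroblasts and extracellular matrix 3 fell and 0 rose, where 2.08% of all genes fell, with a list median of -0.04. TNC encodes tenascin C, a matrix protein of tissue that is growing or being rebuilt. It was at 10.17, 11.40, 11.31 and 10.73 in sham and at 8.31, 8.12, 7.24 and 9.09 in HP. No HP animal reached the sham range, and TNC fell by 2.72 ± 0.50 (6.57-fold, adjusted p = 0.0027). HAPLN1, which links hyaluronan to proteoglycans, was at 9.23, 9.20, 7.75 and 9.27 in sham and at 5.17, 3.33, 3.90 and 6.20 in HP. It fell by 4.21 ± 0.69 (18.6-fold, adjusted p = 0.0012), with a dim HP mean, and a second probe set of HAPLN1 passed as well. LOXL1, an enzyme that cross-links elastin, fell by only 0.79 ± 0.21, and its call was lost without HP A, HP C, HP D, sham A, sham C or sham D (adjusted p up to 0.128). The collagens COL1A2 (-1.05) and COL3A1 (-0.29), FN1 (-0.45) and DCN (0.09) did not pass. TNC and HAPLN1 passed with each array left out in turn. With HP A and HP C set aside TNC did not pass (-2.30, adjusted p = 0.0979) and 1 member of the list did.

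ZFP42, a zinc finger gene best known from pluripotent stem cells, was the third of the lower genes by size, at 9.32, 6.86, 6.75 and 8.92 in sham and 5.96, 2.64, 3.58 and 3.36 in HP. Its spread was wide in both groups and its HP mean was dim (-4.08 ± 1.08, adjusted p = 0.0333), and the call was lost without any one of HP B, HP C, HP D, sham A, sham B or sham D (up to 0.13).

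The higher genes were led by PCK1, which encodes phosphoenolpyruvate carboxykinase, an enzyme of glucose and glycerol synthesis. PCK1 was at 6.42, 6.71, 6.001 and 6.98 in sham and at 9.07, 11.03, 10.01 and 9.38 in HP. Every HP animal lay far above every sham animal, and PCK1 rose by 3.35 ± 0.61 (10.2-fold, adjusted p = 0.00232). PDK4, the kinase that shuts pyruvate dehydrogenase and so spares glucose, was at 8.48, 8.65, 8.00 and 8.22 in sham and at 10.37, 11.46, 11.05 and 11.34 in HP. The groups lay well apart with little spread, and PDK4 rose by 2.72 ± 0.40 (6.58-fold, adjusted p = 0.00039). ANGPTL4, a secreted inhibitor of lipoprotein lipase, was at 8.87, 8.81, 9.52 and 9.00 in sham and at 9.55, 12.10, 11.59 and 11.42 in HP. HP A was only just above the highest sham animal, and the other HP animals were far above it. ANGPTL4 rose by 2.12 ± 0.44 (4.33-fold, adjusted p = 0.00677), but its call was lost in a fit of the 2 groups alone (adjusted p = 0.0633).

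FKBP5, a partner of steroid receptors and a known target of both glucocorticoid and progesterone receptors, was at 8.86, 9.88, 9.46 and 9.26 in sham and at 10.26, 11.04, 10.56 and 10.48 in HP. FKBP5 rose by 1.22 ± 0.28 (2.33-fold, adjusted p = 0.0152), a second and dimmer probe set had 0.84 without passing, and the call was lost without HP B or sham A (adjusted p up to 0.075), in a fit of the 2 groups alone (0.0527), and with HP A and HP C set aside (0.0799). PCK1, PDK4, ANGPTL4 and FKBP5 are the 4 called members of a list of 20 glucocorticoid-responsive genes, of which 0 fell. The list median was 0.59, against 0.818% of all genes called higher and a median of -0.02 over all genes. In 7 of the 20 every HP animal lay above every sham animal, against 3.13% of all genes. Besides the 4 called members these were KLF9 (0.99), NFKBIA (0.70) and TSC22D3 (0.45), which did not pass. SGK1 (-0.11), DUSP1 (0.02) and TAT (-0.53), genes as well known for glucocorticoid response, did not pass either. With HP A and HP C set aside 3 of the 20 passed, with a median of 0.83. Glucocorticoid levels in the animals were not analysed here.

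FOXO1, a transcription factor of fasting metabolism and of cell cycle exit, was at 8.42, 8.30, 9.17 and 8.41 in sham and at 9.50, 10.52, 10.34 and 9.71 in HP. FOXO1 rose by 1.44 ± 0.26 (2.72-fold, adjusted p = 0.00232). SHMT1, the cytosolic enzyme that passes 1-carbon units from serine to folate, was at 7.15, 7.12, 7.91 and 7.67 in sham and at 8.61, 8.87, 9.11 and 8.61 in HP. Its HP animals lay close together above all sham animals, and SHMT1 rose by 1.34 ± 0.22 (2.53-fold, adjusted p = 0.00149), though its other probe set was not called. ANPEP, a membrane aminopeptidase, rose by 2.26 ± 0.46 (4.79-fold, adjusted p = 0.00571). PCK1, PDK4, FOXO1, SHMT1 and ANPEP passed with each of the 8 arrays left out in turn and with HP A and HP C set aside.

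GAS6, the ligand of the AXL and MERTK receptors, rose by 1.34 ± 0.37, and its call was lost without HP B, HP C, sham A, sham B or sham D (adjusted p up to 0.158). GAS6 and FOXO1 were the 2 of 26 genes of quiescence, apoptosis and involution that rose (0.818% of all genes did), while 0 fell. GPX3, a secreted glutathione peroxidase, rose 5.27-fold (2.40 ± 0.53), but its call was lost without HP B (adjusted p = 0.0649). DUOX2, a source of hydrogen peroxide at epithelial surfaces, rose by 2.25 ± 0.55, but its call was lost without HP B, HP C or sham D (up to 0.102). ITIH3, a hyaluronan-binding serum protein, had 1.70 ± 0.43 and DHRS4, a carbonyl reductase, 1.62 ± 0.38. Other probe sets of ITIH3 were not called, and ITIH3 was lost without HP B, HP C, sham A or sham D (up to 0.117) and DHRS4 without HP B, sham A or sham D (up to 0.075). C7H6orf52 had 3.06 ± 0.76, from a dim sham mean, with HP A (9.32) and HP D (8.60) well above HP B (5.21) and HP C (6.67). Its call was lost without HP A, HP D, sham B or sham D (up to 0.086).

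Of 17 adipocyte markers 2 rose, PCK1 and CFD, and 0 fell, against 0.818% and 2.08% of all genes. In 16 the change was above 0, and the median was 0.59 against -0.02 for all genes. CFD, adipsin, a serum protease secreted by fat cells, was at 10.16, 10.27, 10.46 and 10.65 in sham and at 11.13, 12.63, 12.49 and 11.71 in HP. CFD rose by 1.60 ± 0.45 (adjusted p = 0.0487), and the call was lost without any one array other than HP A (adjusted p up to 0.185). ADIPOQ, adiponectin, differed by 1.23 ± 0.58 (adjusted p = 0.286), and PNPLA2 (1.28) and LIPE (1.20), the lipases that release stored fat, did not pass. The adipocyte score was -0.24, 0.31, -0.50 and -0.61 in sham and 0.78, 0.81, 0.30 and 0.40 in HP, with 1 of the 17 markers dim over all arrays. Sham B lay within the range of the HP animals. GPIHBP1, which holds lipoprotein lipase on the capillary wall, rose by 1.69 ± 0.41 (3.22-fold, adjusted p = 0.0193). Its call was lost without HP B, HP C, sham A, sham B or sham D (up to 0.075). Whether more fat tissue in the HP samples had a part in the change of PCK1, CFD, PDK4 or ANGPTL4 was not tested.

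Of 30 genes of fatty acid and lipid synthesis 1 rose and 0 fell, where 0.818% of all genes rose and 2.08% fell. GPAT4, which adds the first fatty acid to glycerol phosphate, had 8.39, 8.52, 8.40 and 8.36 in sham and 9.39, 9.41, 9.07 and 9.25 in HP. The step was small and the groups were separate (0.86 ± 0.23, adjusted p = 0.0316), but the call was lost without any one array other than sham C (up to 0.103). FASN, fatty acid synthase, had -1.54 and ME1, malic enzyme, -1.22, and neither passed.

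**Figure D3:**
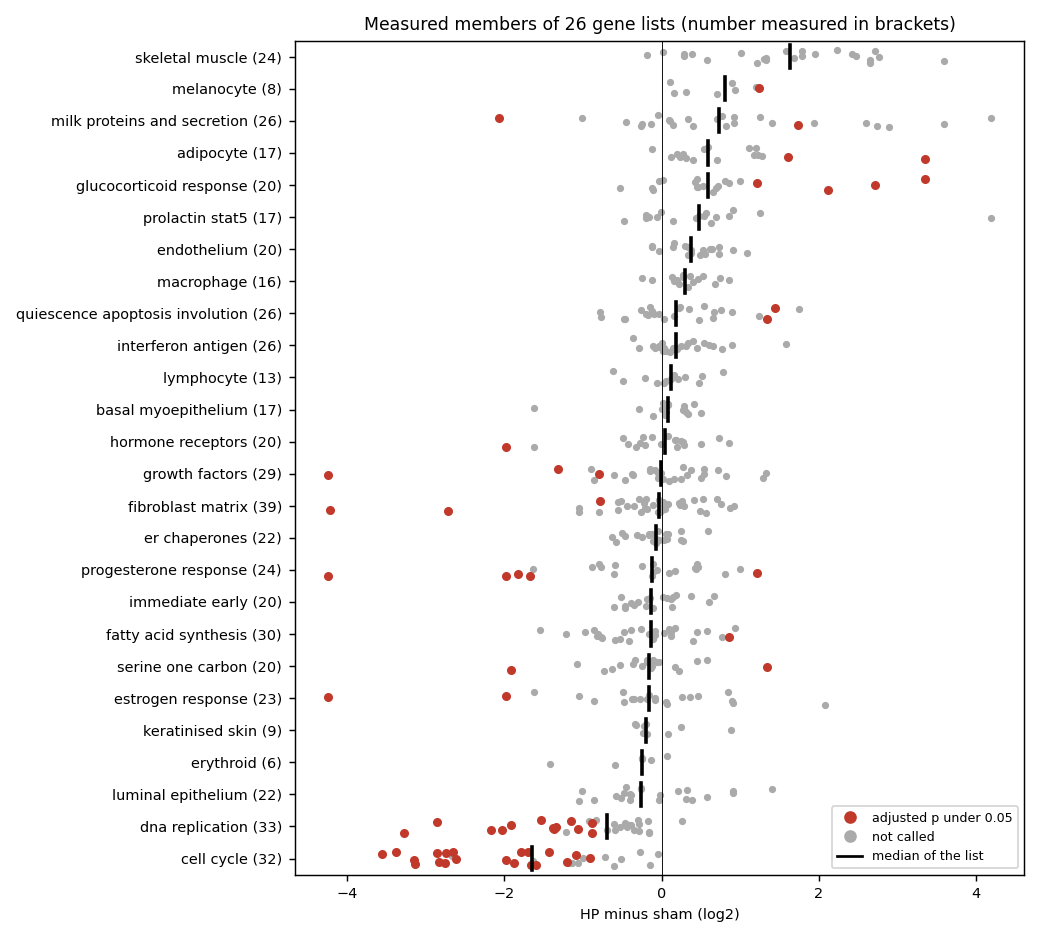
Difference between HP and sham (log2, x axis) of each measured member (point) of 26 gene lists, ordered by their medians (black bars), with called members in red and the number measured in brackets. The cell cycle and DNA replication lists lie lowest with 20 and 13 called members, and the skeletal muscle list lies highest with a median of 1.64 and 0 called members.

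Milk protein genes were higher in every HP animal for some members, but the main fit did not call them. CSN2, beta-casein, was at 10.79, 10.30, 10.88 and 10.98 in sham and at 12.22, 11.51, 11.86 and 12.36 in HP. The groups did not overlap, and the difference was 1.25 ± 1.36 (adjusted p = 0.715). The SE comes from all 9 groups, among which CSN2 varied from 2.25 to 11.6 within group B (bromocriptine alone), and in a fit of HP and sham alone CSN2 passed with the same difference (adjusted p = 0.0409). WAP, whey acidic protein, was at 7.68, 6.12, 6.02 and 10.08 in sham and at 13.02, 10.29, 12.01 and 11.35 in HP. Sham D nearly reached HP B, and the difference of 4.19 ± 1.51 (18.3-fold, adjusted p = 0.133) passed in the fit of the 2 groups alone (adjusted p = 0.0485). CSN3, kappa-casein, had 10.61, 9.27, 10.97 and 11.16 in sham and 13.09, 11.48, 12.36 and 12.84 in HP, again without overlap (1.94 ± 1.46, adjusted p = 0.553), and did not pass in the fit of the 2 groups (0.0723). CSN1S1 (0.92 ± 1.30), CSN1S2 (2.90 ± 1.69) and LALBA (3.59 ± 1.91) overlapped between the groups and did not pass, nor did they in the fit of the 2 groups (adjusted p = 0.0943 for LALBA, the lowest of the 3). In CSN1S2 sham C stood apart at 5.40, where the other sham animals had 9.86 to 11.86.

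SLC34A2, the phosphate transporter of secreting alveoli, was at 7.94, 6.96, 8.31 and 7.63 in sham and at 11.37, 9.50, 9.79 and 11.13 in HP. It missed the threshold with 2.74 ± 0.83 (6.66-fold, adjusted p = 0.0668), and it passed with 2 groups in the fit (0.0253), with array weights (0.00912) and without BP A (0.0109). PIGR, which carries antibodies into milk, had 2.60 ± 0.77 (adjusted p = 0.0601) and no overlap. LPO, lactoperoxidase, was called (1.74 ± 0.44, adjusted p = 0.0243), but both means were dim and the call was lost without HP A, HP C, HP D, sham A, sham B or sham D (up to 0.0923). Of 26 milk genes 1 rose (LPO) and 1 fell (PTHLH), where 0.818% of all genes rose and 2.08% fell, with a median of 0.74. In 6 of the 26 the groups were separate with HP higher, against 3.13% of all genes. KRT18 did not pass in the fit of all 9 groups (-1.02 ± 0.31, adjusted p = 0.065) but passed in the fit of the 2 groups alone (0.043) and with array weights (0.00689).

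Of 17 genes of prolactin signalling 0 passed, where 0.818% of all genes were called higher and 2.08% lower. The list median was 0.48. STAT5A, which carries the prolactin signal to the nucleus, was at 9.61, 9.20, 10.47 and 9.51 in sham and at 10.79, 10.27, 9.83 and 10.69 in HP. Sham C lay among the HP animals, and the difference was 0.70 ± 0.30 (adjusted p = 0.229; 0.0168 with array weights). STAT5B differed by 0.44 ± 0.34 and JAK2 by 0.56. Other probe sets had 0.42 and 1.02 for STAT5A and 0.90 for STAT5B, and none of them was called. DRD2, the dopamine receptor that both drugs act on, was dim in both groups and differed by 0.29 ± 0.67 (adjusted p = 0.882). Of 20 hormone receptor genes 1 fell (PGR) and 0 rose, against the same shares of all genes. The prolactin receptor gene was not analysed here.

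Of 24 measured genes of the progesterone response list 1 rose (FKBP5) and 4 fell (AREG, PGR, OVGP1 and LRRC43). Of all genes 0.818% rose and 2.08% fell, and the list median was -0.12. Like the other lists, it was chosen with earlier results of these data known. OVGP1, oviductal glycoprotein 1, was at 8.24, 7.61, 8.38 and 8.17 in sham and at 5.83, 6.48, 6.14 and 6.61 in HP. It fell by 1.83 ± 0.46 (3.56-fold, adjusted p = 0.0256), but its call was lost without HP A, HP B, HP C, sham A or sham D (up to 0.0779). LRRC43 fell by 1.67 ± 0.47 (adjusted p = 0.047), with a dim HP mean and the call lost without any one array other than sham B (up to 0.132). HSD11B2, which inactivates glucocorticoids, was at 7.45, 8.04, 8.71 and 6.72 in sham and at 6.85, 8.20, 7.66 and 10.08 in HP. Only HP D lay above the sham range, and the difference was 0.46 ± 0.52 (adjusted p = 0.722). PHGDH, the first enzyme of serine synthesis, differed by -0.25 ± 0.26 (adjusted p = 0.696). In the list of 20 serine and 1-carbon genes SHMT1 rose and TYMS, thymidylate synthase, fell (-1.92 ± 0.51), against the same 0.818% and 2.08% of all genes. TYMS had a dim HP mean, and its call was lost without HP A, HP B, HP C, sham B or sham C (up to 0.126).

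Markers of other tissue also differed between HP animals. Of 24 skeletal muscle genes 0 passed limma, where 0.818% of all genes were called higher and 2.08% lower. An unadjusted p under 0.05 was found for 2 of the 24, against 3366 of all 20792 probe sets. The median was 1.64, with 12 of the 24 dim over all arrays. MYL1, a myosin light chain of fast muscle, was at 3.56, 7.33, 3.44 and 2.67 in sham and at 10.84, 6.78, 10.71 and 3.04 in HP. HP A and HP C were thus bright for this muscle gene and HP D was not, and the difference was 3.59 ± 1.56 (adjusted p = 0.236). The skeletal muscle score was 2.21, 0.38, 2.69 and -1.03 in HP A to D and -0.72 to -0.04 in sham. Of 8 melanocyte markers 1 rose, where 0.818% of all genes did. It was MITF (1.23 ± 0.32, limma adjusted p = 0.0298), the transcription factor of pigment cells that other cells also use. MITF overlapped between the groups, sham C lying within the HP range, and was lost without HP B, HP C, sham A, sham B or sham D (up to 0.15). It was also lost in the limma fit of the 2 groups alone (adjusted p = 0.204) and with HP A and HP C set aside (0.182). The melanocyte score ranged from -1.79 to 1.19 in sham and from -1.24 to 0.81 in HP. The part of these tissues in any change was not tested. Of 16 macrophage, 13 lymphocyte, 20 endothelial, 22 luminal, 17 basal, 6 erythroid and 9 keratinised skin genes 0 passed in either direction. Among 22 chaperone, 26 interferon and 20 immediate early genes 0 passed as well. Given the shares of all genes called (0.818% higher, 2.08% lower), 0 calls in a short list do not show an unchanged level.

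**Figure D4:**
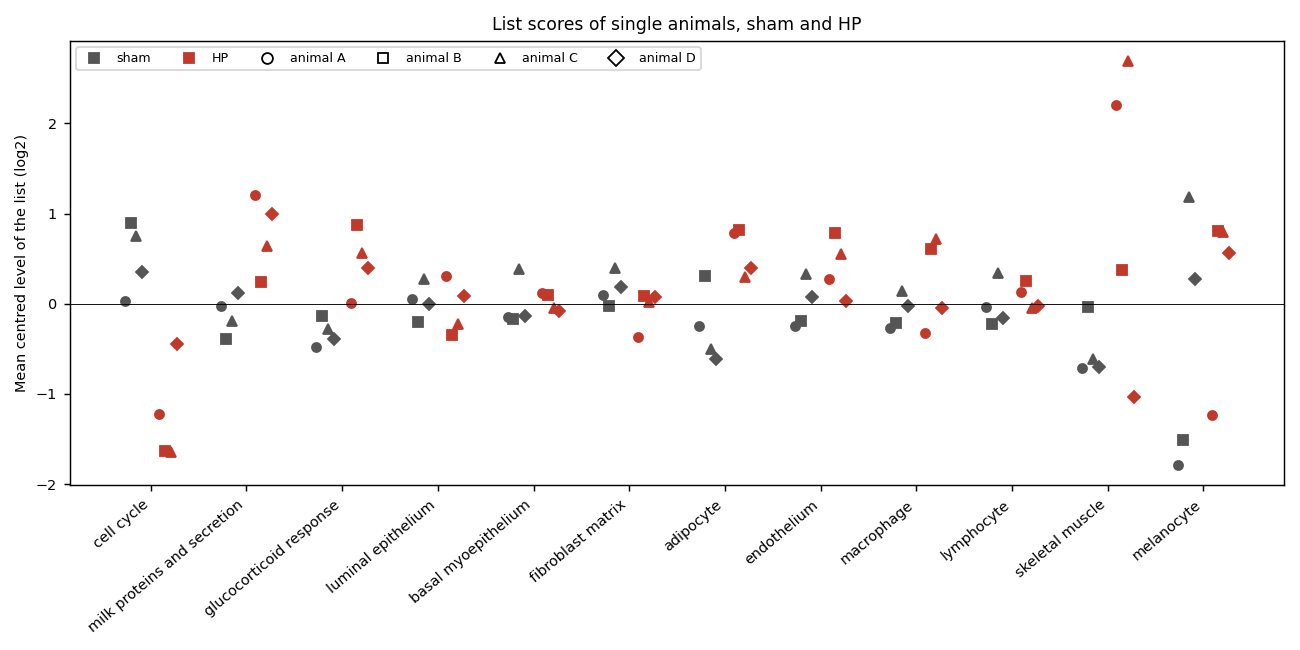
Score of 12 gene lists (mean level of the members after centring each gene over 36 arrays, log2, y axis) in each sham (grey) and HP (red) animal. The 4 HP animals lie below the 4 sham animals for the cell cycle and above them for milk and glucocorticoid genes, and skeletal muscle splits HP A (2.21) and HP C (2.69) from HP B (0.38) and HP D (-1.03).

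HP was next set against other ovariectomized groups. Against H, the comparison of progesterone added to haloperidol, 0 of 20792 probe sets (0%) passed limma. At an unadjusted p under 0.05 there were 568 (2.73%), and the smallest adjusted p was 0.0903. The fit with array weights called 1 probe set without a gene symbol (-1.85). The 95% interval of the difference lay within a 2-fold change either way for 73.7% of the probe sets, with a median half-width of 0.59. AREG was at 6.67 ± 1.51 (SD, n = 4) in HP and 6.87 ± 0.22 in H, a difference of -0.20 with an interval of -1.31 to 0.91. PCK1 differed by 0.36 (-0.88 to 1.61), PDK4 by 0.05 (-0.77 to 0.87) and CCNB1 by -0.31 (-1.68 to 1.07). FKBP5 differed by 0.27 (-0.31 to 0.85) and PGR by -0.14 (-1.22 to 0.94). A 2-fold effect of progesterone in either direction thus lay outside the interval for PDK4 and FKBP5, a 2-fold fall lay within it for AREG and PGR, a 2-fold rise for PCK1, and both for CCNB1. HSD11B2 had 1.40 (0.34 to 2.46) without passing, and WAP had 1.35 with an interval from -1.73 to 4.42.

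Against BP, which continued on bromocriptine and received no haloperidol, so that 2 drugs of opposite action differ and their parts cannot be told apart, 0 of 20792 probe sets (0%) passed, with 1006 (4.84%) at an unadjusted p under 0.05 and a smallest adjusted p of 0.183. BP A stood apart from its group, and not in milk genes alone. On the first principal component it scored 70.0, where BP B, C and D scored -65.3, -48.3 and -53.8. WAP was at 12.8 in BP A where the other BP animals had 5.99 to 9.14. AREG was at 9.56 against 6.66 to 7.21, and CCNB1 at 10.3 against 6.015 to 6.52. Without BP A 5 probe sets passed, of which 3 had gene symbols: SLC34A2 (4.27, adjusted p = 0.0189), PDXK (1.42, 0.0335) and CPT1A (1.20, 0.0425). PDXK activates vitamin B6, and CPT1A admits fatty acids to mitochondria. Without HP A 2 probe sets passed, among them ANGPTL4 (2.47, adjusted p = 0.0184), and without BP C only PDK4 did (3.04 at another of its probe sets, adjusted p = 0.0495). Without BP B 1 probe set without a symbol passed. PCK1 was at 9.87 ± 0.86 in HP and 7.42 ± 0.70 in BP (SD, n = 4), a difference of 2.45 with a 95% interval of 1.21 to 3.70 (adjusted p = 0.426). ANGPTL4 differed by 1.93 (1.03 to 2.83), PDK4 by 1.38 (0.56 to 2.20) and SLC34A2 by 3.07 (1.38 to 4.76) in the fit of all arrays, each without passing.

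Against HEP, which also received estrogen, HP differed at 3441 probe sets (16.5%), 1602 higher (7.7%) and 1839 lower (8.84%). Without HP C there were 1690 and without HP B 1754. HP is common to both comparisons, so values are given side by side. Of the 32 cell cycle genes 29 were lower in HP than in HEP, where 9.81% of all genes were, and 0 were higher, with a median of -2.52. CCNB1 was at 5.76 ± 1.498 in HP, 9.31 ± 0.62 in sham and 10.5 ± 0.26 in HEP (SD, n = 4). AREG was at 6.67 ± 1.51, 10.9 ± 0.46 and 10.5 ± 0.27, and TNC at 8.19 ± 0.76, 10.9 ± 0.57 and 11.7 ± 0.50. For AREG, TNC and CCNB1 the HP mean was thus lowest of the 3 groups, and HP differed from HEP by -3.87 ± 0.54, -3.49 ± 0.50 and -4.72 ± 0.68 (adjusted p = 3.06e-05 to 3.36e-05). PCK1 was 11.6-fold higher in HP than in HEP (3.54 ± 0.61, adjusted p = 0.000236), ANGPTL4 4.26-fold (adjusted p = 0.00187) and PDK4 2.98-fold (adjusted p = 0.00855). FKBP5 differed by 0.18 ± 0.28 between HP and HEP (adjusted p = 0.705).

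Some genes differed from HEP and not from sham. PHGDH was at 7.81 ± 0.53 in HP, 8.06 ± 0.22 in sham and 10.4 in HEP, a fall of 2.58 ± 0.26 against HEP (adjusted p = 6.93e-07). HSD11B2 was 4.75-fold lower in HP than in HEP (-2.25 ± 0.52, adjusted p = 0.00393). STC1, the secreted hormone stanniocalcin 1, had 9.77, 9.70, 9.76 and 9.92 in HP, 9.02 to 10.62 in sham and 6.55 to 7.81 in HEP. It was 6.95-fold higher in HP than in HEP (adjusted p = 0.0019) and differed from sham by -0.08 ± 0.59. Of 17 adipocyte markers 11 were higher in HP than in HEP and 0 lower, where 8.33% of all genes were higher, with a median of 1.83. MYL1, TTN and CKM of skeletal muscle were higher than in HEP as well, among 4 of the 24 muscle genes, where 8.33% of all genes were higher. The skeletal muscle score was -1.03 to 2.69 in HP and had a mean of -0.97 in HEP, and its part in these differences was not tested.

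**Figure D5:**
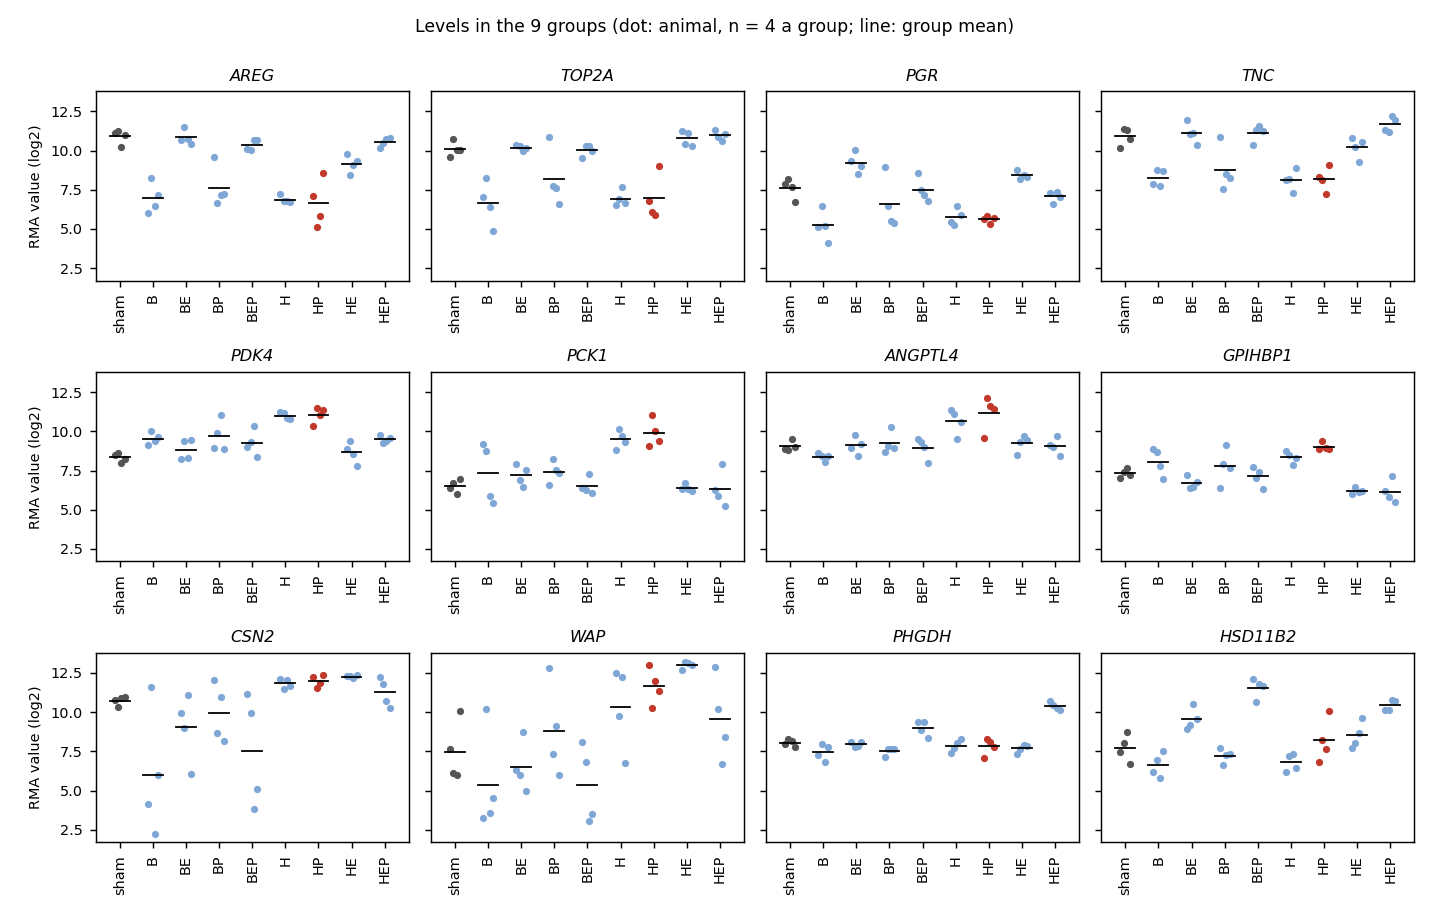
Deposited level (RMA value, log2, y axis) of 12 genes in each animal (dot) of the 9 groups, with the group mean as a line, sham in grey and HP in red. In group names B means bromocriptine, H haloperidol, E estrogen and P progesterone. AREG, TOP2A and TNC are low in B, H and HP and high in sham and in the groups with estrogen, PCK1 and ANGPTL4 are highest in H and HP, and PHGDH is highest in HEP.

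Set among all 9 groups, the called genes showed a few orders of level. AREG had means of 10.9 in sham, 10.8 in BE, 10.5 in HEP and 10.4 in BEP, then 9.16 in HE, 7.64 in BP, 6.96 in B, 6.87 in H and 6.67 in HP. The lowest 4 groups were those without ovaries and without estrogen, and their ranges overlapped. PGR had its highest mean in BE (9.23), and HP (5.61), H (5.76) and B (5.24) lay lowest with overlapping ranges. PCK1 had means of 9.87 in HP and 9.51 in H, and between 6.33 and 7.42 in the other 7 groups, although B A reached 9.20. PDK4 was at 11.06 in HP and 11.01 in H, then 9.68 in BP, 9.53 in B, 9.48 in HEP, 9.27 in BEP, 8.83 in BE, 8.66 in HE and 8.34 in sham. GPIHBP1 was highest in HP (9.02), followed by H (8.35), B (8.07) and BP (7.78), and lowest in HE (6.19) and HEP (6.16). CSN2 was highest in HE (12.3), then in HP (11.99) and H (11.8), and the 4 groups with bromocriptine to the end had lower means and SDs of 1.84 to 4.02. SHMT1 was highest in HP (8.80), with HE (8.52) and H (8.42) next. These orders describe levels of genes chosen for their difference from sham, and neighbours in each order were not tested. The BP means include BP A, which stood apart from its group.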

How the data were processed

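Total RNA of mammary gland was labelled with biotin and hybridized to 1 Affymetrix porcine array per pig. The authors summarized probe sets with RMA, per the labels, and the deposited values were read as log2 from their range, since no source used here names the log base or the software. They were used as deposited. Of 20792 probe sets 9149 had 1 gene symbol, 178 several and 11465 none; a gene was taken by its brightest probe set with that symbol alone (6360 genes).

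limma 3.58.1 (R 4.3.3, statmod 1.5.0) fitted 1 mean for each of 9 groups to all 36 arrays (27 residual and 4.16 prior degrees of freedom), two-sided, with Benjamini-Hochberg adjustment over all probe sets within each of 4 comparisons, called at an adjusted p under 0.05. Intervals are 95%. Arrays have no depth; the number of animals limits precision. The titles do not state how animals were housed or processed together, and no source used here names a batch. The code was tested on simulated data with 200 probe sets changed between HP and sham. It recovered 36% of them at a log2 change of 1 (2 false calls) and 89.5% at a change of 2 (10 false calls).

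The members, 26 gene lists, tests and named genes were chosen with earlier results of these data known. Named are the 12 called genes that changed most each way (LOC symbols left out), up to 4 called members per list, up to 5 each way in the comparison with HEP, and 35 fixed genes, of which 28 were measured. In 3 lists under 50% of the members were measured. List scores average the genes after centring each over the 36 arrays. Alternatives were a second quantile normalization, centring on medians, a filter on dim probe sets, a variance trend, array weights, the title letter as a block, 1 probe set per gene, 2 groups alone and each array left out; BP A, or HP A with HP C, were set aside after seeing the data. Figures and tables used Python 3.11.15 with pandas 2.3.3 and matplotlib 3.10.9.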

Additional observations from a re-analysis of the deposited data

Results flagged for a closer look

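Among 134 groups of 4 animals examined for the named genes, 7 held an animal that stood apart by its gap to the nearest other animal as a share of the whole range, and chance alone flags about 1 in 20 groups. In HP these were GPIHBP1 in HP B (gap 0.914 of the range, level 9.36 against 8.93 for the next), ASF1B in HP D (0.961, 5.55 against 3.90) and MCM2 in HP A (0.832, 5.17 against 6.53). In sham they were HAPLN1 in sham C (0.954, 7.75 against 9.20), NEK2 in sham A (0.972, 7.12 against 8.57), LOXL1 in sham B (0.879, 11.30 against 11.72) and FOXO1 in sham C (0.867, 9.17 against 8.42). All 7 genes kept the direction of their change without that animal.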

How the results depend on the processing

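Of the 41 named genes called in HP against sham, 21 kept their call with each of the 8 arrays left out. Under all 19 alternatives that gave them a value 8 kept it (AREG, HAPLN1, PTHLH, PCK1, PDK4, ANPEP, FOXO1 and SHMT1). None changed direction. In the fit of the 2 groups alone 10 of the 41 lost their call (C7H6orf52, DUOX2, ANGPTL4, LPO, NDP, DKK2, LOXL1, MITF, FKBP5 and GAS6). In that fit 5 other named genes gained a call (CSN2, WAP, SLC34A2, KRT18 and SCARA5). With HP A and HP C set aside 32 of the 41 lost it. The probe sets called (571, 197 higher and 374 lower) became 268 (85 and 183) without dim probe sets, 1840 (892 and 948) with array weights, 200 (57 and 143) with 1 probe set per gene, 348 (128 and 220) with the 2 groups alone, and, chosen after seeing the data, 945 (367 and 578) without BP A and 46 (20 and 26) without HP A and HP C. Leaving out single arrays gave 235 to 794 (72 to 390 higher, 159 to 404 lower). Calls were lower in HP for 65.5%, against 51.5% with array weights, 50.9% without sham C and 55.3% without HP A. Progesterone added to haloperidol gave 0 calls under every alternative except 1 with array weights, and HP against BP 0 except 0 to 5 with single arrays left out. HP against HEP gave 2210 (1082 lower) without dim probe sets, 6026 (2903 higher, 3123 lower) with array weights, 1326 (621 and 705) with 1 probe set per gene and 1690 to 4027 (703 to 1951 higher, 987 to 2076 lower) with single arrays left out. With the letter in the titles as a replicate block, HP against sham gave 643 calls (248 higher, 395 lower), and all 41 named genes kept their calls. Deviations of same-letter animals correlated at -0.21 to 0.09 between HP and sham and at -0.04 to 0.26 with H. They correlated at -0.30 to 0.43 with BP and at -0.20 to 0.26 with HEP. In none of these comparisons did every pair exceed 0.1, and the letters were not taken to pair animals. With H, however, letters A, B and C had 0.26, 0.21 and 0.15, and this rule cannot show that animals of the same letter shared nothing. Fewer arrays or probe sets enter several of these fits; the cause of the other shifts was not tested. With 4 animals a group, the median SE of a difference was 0.29. The description of promoter motifs was not run.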

Other observations

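Several called genes outside the gene lists were picked here after their values were seen. Whether their calls held with single arrays left out is not given. Among secreted factors, PTN, the heparin-binding growth factor pleiotrophin, was at 8.31 ± 0.66 in HP and 10.3 ± 0.71 in sham (SD, n = 4) and fell by 1.94 ± 0.45 (SE, limma adjusted p = 0.0152). PTX3, a pentraxin of innate defence and matrix assembly, fell by 1.53 ± 0.33 and C1QTNF3, an adipokine of the C1q family, by 2.01 ± 0.49. TNFRSF12A, the receptor of the cytokine TWEAK, was at 8.82 ± 0.04 in HP and 10.4 ± 0.39 in sham, a fall of 1.55 ± 0.25 with little spread among the HP animals. APOF, an apolipoprotein, fell 4.32-fold, and DIRAS3, an imprinted inhibitor of growth, 3.44-fold from a dim sham mean. PTN, PTX3, TNFRSF12A, APOF and DIRAS3 were also lower in HP than in HEP (limma adjusted p = 2.18e-05 to 0.000387), which shares the HP arrays with the comparison against sham.

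On the higher side GADD45G and GADD45A, genes induced by stress and growth arrest, rose by 1.51 ± 0.31 and 0.92 ± 0.25, with separate groups for GADD45G and an overlap for GADD45A. MECOM, a zinc finger transcription factor, rose 2.54-fold (limma adjusted p = 0.00415), and EDN1, the vasoconstrictor endothelin 1, rose 2.54-fold (limma adjusted p = 0.036). APOD, an apolipoprotein raised in arrested cells, was at 12.5 ± 0.23 in HP and 11.3 ± 0.30 in sham, and SELENBP1, a selenium-binding protein, at 10.8 ± 0.06 and 9.87 ± 0.39 (SD, n = 4). FMO1, a flavin monooxygenase, rose by 1.19 ± 0.30. GADD45G, EDN1, APOD, SELENBP1 and FMO1 differed from H by 0.20, 0.50, -0.04, 0.22 and 0.01. Limma called none of these 5 differences, but against H it called 0 of all 20792 probe sets (0%), so this does not show equal levels.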
